A study of Bos taurus with 2 samples.

Results

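The levels of 10 imprinted genes were followed across the barcode classes of a bovine blastoid and a bovine blastocyst. The genes were PEG3, PLAGL1, SNRPN, IGF2, IGF2R, MEST, NNAT, PEG10, GRB10 and SGCE, chosen by symbol, and each matched 1 of the 35643 features listed for both libraries. The study asked how far a blastocyst-like structure built from cultured lines resembles the embryo, using single-nucleus RNA sequencing on a droplet platform (10x Genomics). The blastoid was aggregated in microwells from 8 bEPSCs (bovine expanded potential stem cells), 8 bXEN (extraembryonic endoderm) cells and 16 bTSCs (trophoblast stem cells), in medium that held LIF, activin A, CHIR99021 and the CEPT cocktail. The lines had been kept on mouse feeder cells, which were depleted on gelatin before use. The comparison group was blastocysts of day 8. Both are labelled wild type, both were frozen before nuclei were isolated, and the number of blastoids or embryos behind each library is not given in the sources used here. Each group had 1 library, so every difference below compares these 2 libraries, has no replicate check and cannot be told apart from a difference between library preparations.

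An imprinted gene is transcribed mainly from the allele of 1 parent, and which allele that is depends on DNA methylation set in the egg or sperm, which for many of these genes lies on the silent allele. Many such genes act on growth, on the placenta and on the supply of nutrients to the fetus, and abnormal imprinting is a known problem of bovine embryos made in culture. The counts used here do not tell the parental alleles apart, so they give the amount of RNA of an imprinted gene and nothing about its imprint.

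The blastoid library held 1957 barcodes and 7575395 UMIs (unique molecular identifiers, each counted as 1 captured RNA molecule), and the blastocyst library held 944 barcodes and 7029253 UMIs. After filters, 1914 and 827 barcodes were kept. Blastocyst nuclei fell into trophectoderm-like (354), hypoblast-like (402) and epiblast-like (71) classes, named from markers. Blastoid barcodes with at least 4000 UMIs, called deep, fell into a trophectoderm-like class (147, median 15091 UMIs) and a class without a name (139, median 11063 UMIs). The leading genes of the unnamed class were LMX1A, LDB2, NLGN1, DCC and TENM4, and its summed level of 14 neural markers was 11556 CPM, against 377 CPM in the deep trophectoderm-like nuclei. The 10 mesoderm markers summed to 102 CPM in the unnamed class and 94.6 CPM in the shallow barcodes, against 11.6 CPM in the deep trophectoderm-like nuclei and 12.6 to 15.5 CPM in the blastocyst classes, and the part of these markers in the results below was not tested. CPM is the UMI count of a gene divided by all UMIs of the class, on the usual CPM scale. The other 1628 blastoid barcodes, called shallow, had a median of 1922 UMIs and 15.6% of UMIs from ribosomal protein genes, against 2.46% and 2.59% in the deep classes and 0.686% to 1.33% in the blastocyst classes. Whether they are nuclei, cytoplasm or free RNA was not tested, so their values are those of barcodes and not of a cell type. Their lineage was not resolved, since markers of trophectoderm and of hypoblast were both raised in the same cluster. No blastoid class took the name hypoblast-like or epiblast-like. The summed level of 13 fibroblast markers lay between 59.0 and 84.4 CPM in the blastoid classes and between 128 and 146 CPM in the blastocyst classes.

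The 10 genes fell into several patterns. GRB10 was higher in each blastocyst class than in any blastoid class. SNRPN and IGF2R each varied by less than 2-fold over the 6 classes. PEG3, MEST and NNAT were higher in every blastoid class than in the blastocyst trophectoderm-like and hypoblast-like classes. IGF2 and SGCE had 0 UMIs in the whole blastocyst library, PEG10 had 2 there, and all 3 were detected in each blastoid class. PLAGL1 and SGCE had their highest level in the unnamed blastoid class. All intervals given are 95% intervals, exact Poisson for a level, exact conditional for a ratio and exact binomial for a share, and they cover counting error only. A gene is called higher or lower where the ratio of 2 classes is past 2-fold and the classes together hold at least 20 UMIs of it.

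**Figure D1:**
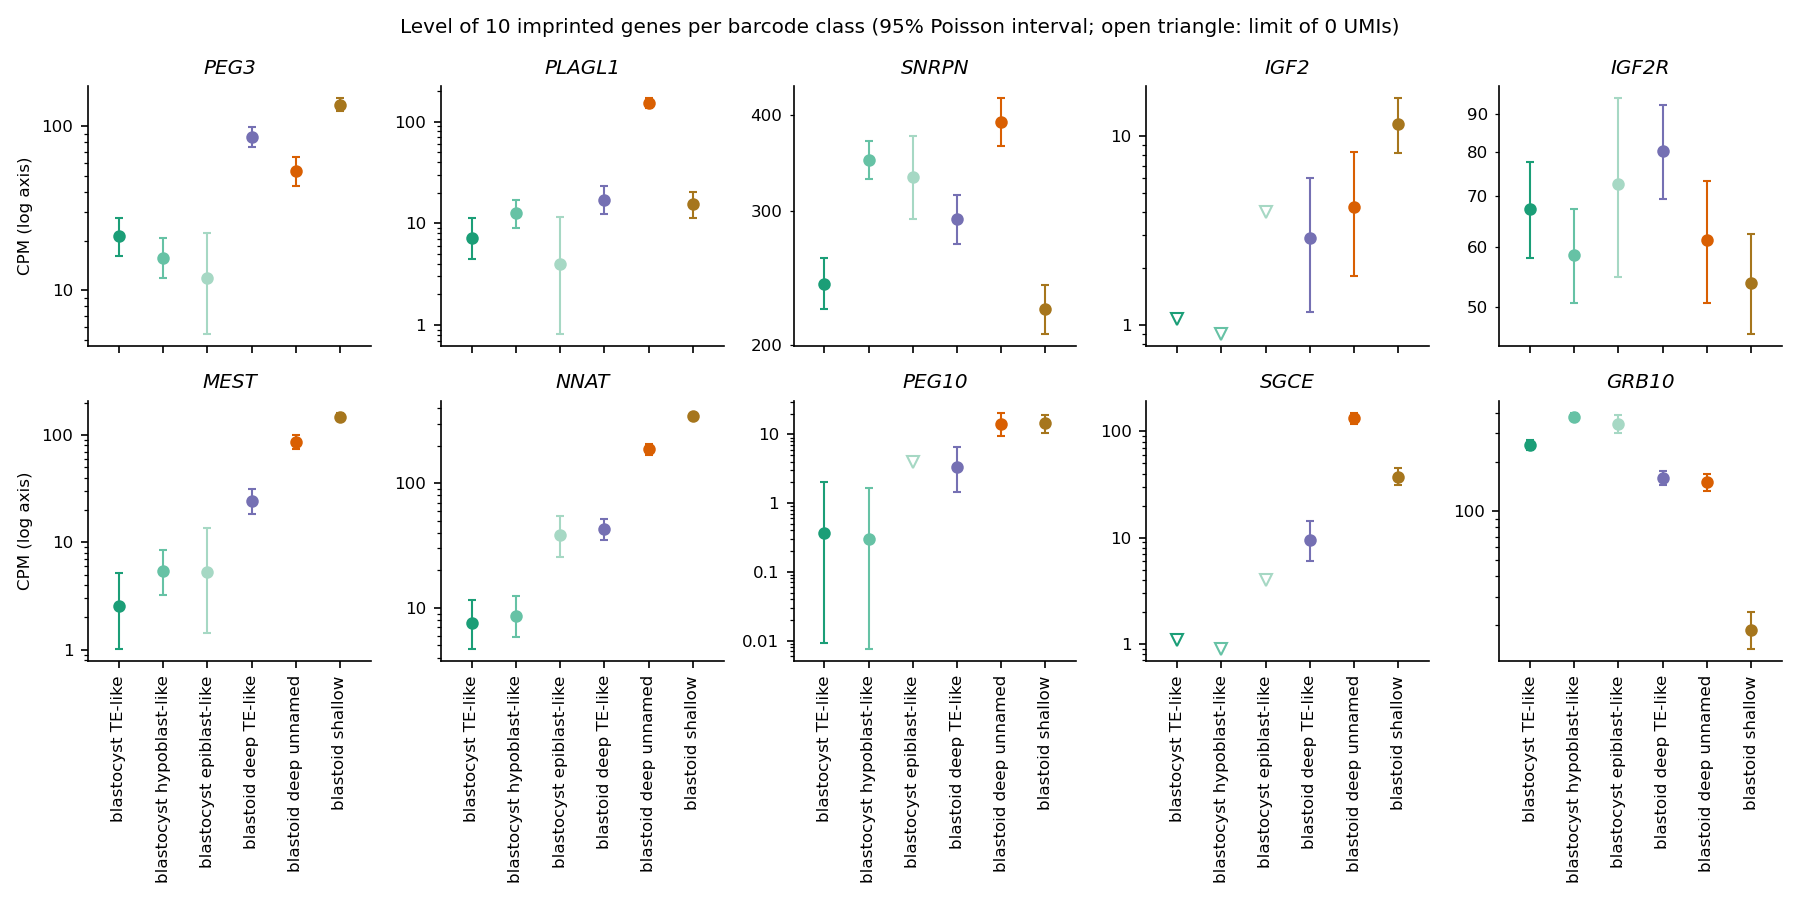
Level of each gene in CPM (log axis, scale differs between panels) in the 3 blastocyst classes (green) and the 3 blastoid classes (purple, orange and brown), with exact Poisson 95% intervals. Open triangles mark classes with 0 UMIs and stand at the level that 3 UMIs would give. TE stands for trophectoderm. GRB10 is lower in the blastoid than in the blastocyst classes, while MEST and NNAT are highest in the shallow blastoid barcodes.

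The growth factor branch was read first. IGF2 (ENSBTAG00000013066) encodes a fetal growth factor that signals through the IGF1 and insulin receptors. It had 0 UMIs in 944 blastocyst barcodes, which allows a level of up to 0.427 CPM and a share of up to 0.318% of barcodes with a UMI. In the blastoid it had 7 UMIs in the deep trophectoderm-like nuclei (2.91 CPM, interval 1.17 to 6.00), 8 in the deep unnamed nuclei (4.22 CPM, 1.82 to 8.32) and 37 in the shallow barcodes (11.6 CPM, 8.19 to 16.0). The deep classes overlapped each other, and the shallow barcodes stood above the sum of the deep nuclei by 3.33-fold (1.79 to 6.54). Between the trophectoderm-like classes IGF2 had too few UMIs for a call.

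IGF2R (ENSBTAG00000002402), the receptor that carries IGF2 to the lysosome for breakdown, was measured in every class. Its level was 67.2 CPM (57.9 to 77.6) in blastocyst trophectoderm-like nuclei, 58.4 (50.5 to 67.2) in hypoblast-like and 72.6 (54.7 to 94.5) in epiblast-like nuclei. In the blastoid it was 80.3 CPM (69.3 to 92.4) in the deep trophectoderm-like class, 61.2 (50.6 to 73.4) in the unnamed class and 53.7 (46.0 to 62.4) in the shallow barcodes. These intervals overlapped between neighbours throughout the order, and IGF2R was called higher or lower in none of the 7 comparisons made. Between the trophectoderm-like classes its ratio of blastoid to blastocyst was 1.19 (0.961 to 1.46).

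GRB10 (ENSBTAG00000017086) encodes an adaptor that binds the insulin and IGF1 receptors and dampens their signal. It was lower in the blastoid. Blastocyst levels were 255 CPM (236 to 274) in trophectoderm-like, 380 (359 to 401) in hypoblast-like and 343 (303 to 387) in epiblast-like nuclei. Blastoid levels were 161 CPM (145 to 177) in the deep trophectoderm-like class, 150 (133 to 169) in the unnamed class and 18.9 (14.4 to 24.3) in the shallow barcodes. No blastoid interval reached that of a whole blastocyst class, and the shallow barcodes stood far below both deep blastoid classes, which overlapped. Over all deep nuclei GRB10 was 2.10-fold lower in the blastoid (1.93 to 2.30). In the trophectoderm-like comparison it was 1.63-fold lower (1.44 to 1.86), an interval that excludes 1 but a size that misses the 2-fold line. In the blastocyst library all barcodes under 4000 UMIs, with a median of 1721, held 254 CPM of GRB10 (199 to 320), near the level of its trophectoderm-like class. The shallow, keratin-rich cluster among its trophectoderm-like nuclei held 154 CPM (120 to 194), against 275 CPM (254 to 297) in the deeper cluster.

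Then the genes known to be expressed from the paternal allele in other mammals were read. PEG3 (ENSBTAG00000054572), a zinc finger protein that acts on fetal growth and placental function, was present at 21.3 CPM (16.2 to 27.5) in blastocyst trophectoderm-like, 15.9 (11.9 to 20.8) in hypoblast-like and 11.9 (5.43 to 22.5) in epiblast-like nuclei, which overlapped. Blastoid levels were 86.1 CPM (74.7 to 98.6) in the deep trophectoderm-like class, 53.3 (43.4 to 64.7) in the unnamed class and 136 (123 to 149) in the shallow barcodes. These did not overlap among the 3 or with the whole blastocyst classes. In the unnamed class PEG3 was 1.62-fold lower (1.27 to 2.07) than in the deep trophectoderm-like class, short of the 2-fold line. Within the blastocyst PEG3 was uneven. The shallow, keratin-rich cluster among the trophectoderm-like nuclei (121 barcodes, median 1721 UMIs) held 63.7 CPM (42.7 to 91.5), against 13.0 CPM (8.76 to 18.5) in the deeper cluster of 233.

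PLAGL1 (ENSBTAG00000026523), a zinc finger transcription factor that regulates other imprinted genes, had its highest level in the unnamed blastoid class. It was at 152 CPM there (135 to 171), found in 94 of 139 nuclei. In the deep trophectoderm-like nuclei it was at 17.0 CPM (12.2 to 23.1) and in the shallow barcodes at 15.4 (11.4 to 20.4), which overlapped. The blastocyst held 7.23 CPM (4.42 to 11.2) in trophectoderm-like, 12.6 (9.07 to 17.0) in hypoblast-like and 3.96 (0.816 to 11.6, from 3 UMIs) in epiblast-like nuclei. PLAGL1 was thus 8.94-fold higher (6.43 to 12.7) in the unnamed than in the trophectoderm-like deep class.

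MEST (ENSBTAG00000017223), a hydrolase-like protein of the endoplasmic reticulum linked to fetal growth, was scarce in the blastocyst. Its level was 2.53 CPM (1.02 to 5.21) in trophectoderm-like, 5.39 (3.20 to 8.52) in hypoblast-like and 5.28 (1.44 to 13.5) in epiblast-like nuclei, from 7, 18 and 4 UMIs. In the blastoid it was 24.1 CPM (18.3 to 31.2) in the deep trophectoderm-like class, 86.5 (73.8 to 101) in the unnamed class and 148 (135 to 162) in the shallow barcodes. The blastoid classes were separated from each other and from the 3 blastocyst classes. In the unnamed class 1 nucleus held 25 of the 164 UMIs of MEST, and the 10 nuclei with most of them held 47.6%.

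NNAT (ENSBTAG00000003212), a small membrane proteolipid first known from developing brain, had the order of MEST over the 3 blastoid classes and another one in the blastocyst. It was at 7.59 CPM (4.70 to 11.6) in blastocyst trophectoderm-like, 8.69 (5.82 to 12.5) in hypoblast-like and 38.3 (25.6 to 55.0) in epiblast-like nuclei. In the blastoid it was at 42.8 CPM (35.0 to 51.9) in the deep trophectoderm-like class, 187 (168 to 207) in the unnamed class and 347 (327 to 368) in the shallow barcodes. The epiblast-like level overlapped that of the deep trophectoderm-like blastoid nuclei. NNAT lies next to BLCAP in the RefSeq gene order, and in other mammals it sits inside an intron of that gene. BLCAP held 19.1, 17.9 and 40.2 CPM in the same 3 blastoid classes and 23.8 to 33.6 CPM in the blastocyst, and was not called in the trophectoderm-like comparison.

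SGCE (ENSBTAG00000021282) and PEG10 (ENSBTAG00000059156) are neighbours in the RefSeq gene order and in other mammals share 1 imprinted promoter region. SGCE encodes a membrane glycoprotein of the sarcoglycan group, and PEG10 is a retrotransposon-derived gene required for the placenta in mouse. SGCE had 0 UMIs in 944 blastocyst barcodes. In the blastoid it held 23 UMIs in the deep trophectoderm-like class (9.56 CPM, 6.06 to 14.3), 251 in the unnamed class (132 CPM, 117 to 150) and 119 in the shallow barcodes (37.4 CPM, 31.0 to 44.8), with no overlap. PEG10 had 2 UMIs in the blastocyst library. It held 8 UMIs in the deep trophectoderm-like class (3.33 CPM, 1.44 to 6.55), 27 in the unnamed class (14.2 CPM, 9.39 to 20.7) and 46 in the shallow barcodes (14.5 CPM, 10.6 to 19.3), and the last 2 overlapped. Both genes were detected in all 3 blastoid classes, and PEG10 also had 1 UMI each in 2 blastocyst classes where SGCE had 0. SGCE was 3.54-fold (2.84 to 4.44) and PEG10 0.985-fold (0.589 to 1.62) the shallow level in the unnamed nuclei. Of 20 unnamed nuclei with a PEG10 UMI, 16 had an SGCE UMI. Among the nuclei without PEG10 the share was 63.0%, and nuclei with PEG10 were deeper (median 13903 against 10924 UMIs).

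Genes reported near the pair were detected in the blastocyst. CASD1, next to SGCE in the RefSeq gene order, was at 148 CPM in trophectoderm-like, 82.1 in hypoblast-like and 54.1 in epiblast-like nuclei of the embryo. PPP1R9A, a further gene of this region reported as imprinted, was at 25.7, 15.9 and 11.9 CPM in the same order. In the unnamed blastoid class PPP1R9A was 9.10-fold higher than in the deep trophectoderm-like class, beside 13.8-fold (9.02 to 22.2) for SGCE and 4.28-fold (1.89 to 10.9) for PEG10, while CASD1 at 1.42-fold was not called.

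SNRPN (ENSBTAG00000008251), a core spliceosome protein known from brain, was steady. Its level was 241 CPM (223 to 260) in blastocyst trophectoderm-like, 350 (330 to 371) in hypoblast-like and 333 (293 to 376) in epiblast-like nuclei. In the blastoid it was 292 CPM (271 to 315) in the deep trophectoderm-like class, 393 (365 to 422) in the unnamed class and 223 (207 to 240) in the shallow barcodes. SNRPN was called in none of the 7 comparisons. SNURF, which is made from the same transcript in other mammals, was at 39.4, 58.4 and 83.1 CPM in the blastocyst classes and at 35.3, 99.7 and 33.3 CPM in the blastoid classes, and how the reads of the pair were divided is not given in the sources used here.

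The trophectoderm-like classes are the one lineage found in both libraries, and they were compared at 4000 UMIs or more, with 147 blastoid and 254 blastocyst nuclei. Of the 8 imprinted genes with enough UMIs, 5 were called higher in the blastoid, beside 17.1% of 13037 genes tested, and 0 were called lower, beside 13.4%. PEG3 was 4.97-fold higher (3.59 to 7.02), from 207 against 45 UMIs. PLAGL1 was 2.22-fold higher (1.27 to 3.99), from 41 against 20 UMIs, so its interval reaches below the 2-fold line. NNAT was 7.95-fold higher (4.53 to 15.1) and MEST 8.95-fold higher (4.08 to 23.3). SGCE, from 23 UMIs against 0, was 8.29-fold higher with a floor of 3 UMIs in place of the 0. The exact 95% lower limit of the SGCE ratio was 6.21. Of the 5, NNAT, MEST and SGCE are not told apart in these blastoid nuclei from RNA shared with the shallow barcodes, as given further below. The part of such RNA in the calls was not tested. SNRPN at 1.20-fold (1.07 to 1.34), IGF2R and GRB10 were not called. The median log2 ratio was 1.73 over the 8 genes and 0.04 over all genes tested. Markers of other cell types moved in this comparison too. Of 10 neural markers tested 7 were called higher in the blastoid and 1 lower (median log2 ratio 1.86), and of 20 hypoblast markers 5 were called higher and 8 lower, with a median of -0.37. Of 9 epiblast markers 1 was called higher and 4 lower (median -0.78), and of 16 trophectoderm markers 4 higher and 0 lower (median 0.15). The summed neural level was 377 CPM in the deep blastoid and 183 CPM in the whole blastocyst trophectoderm-like class, with SOX1 at 0 in both and DCX and NEUROD1 at 0 in the blastocyst, and the part of these markers in the calls was not tested. The 10 genes were chosen with earlier results of these data known, so the counts describe them and do not test them.

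**Figure D2:**
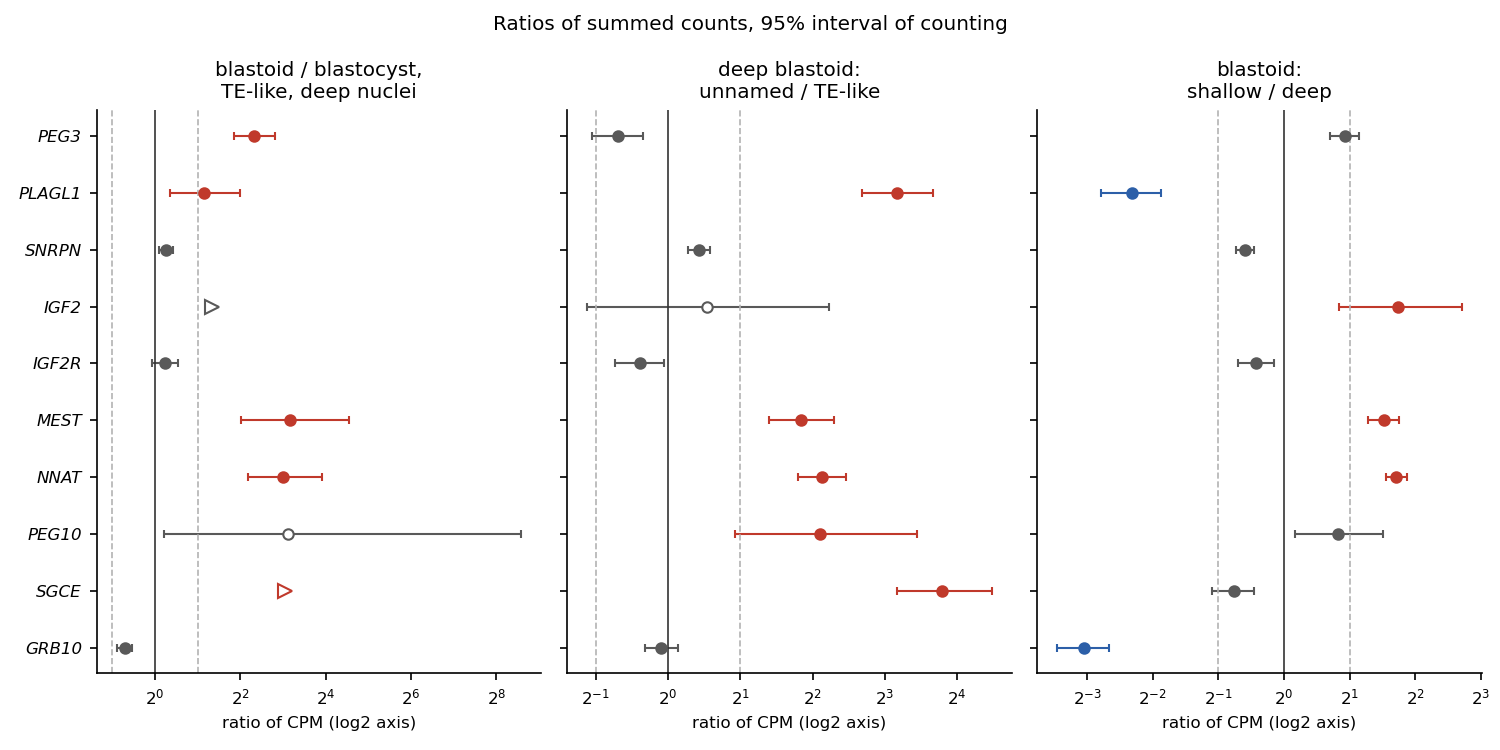
Ratio of CPM (log2 axis, scale differs between panels) with its 95% interval of counting in 3 comparisons. Red marks a gene called higher, blue one called lower and grey one not called, open circles have under 20 UMIs, and dashed lines stand at 2-fold. Open triangles mark ratios to 0 UMIs, drawn with 3 UMIs in place of the 0 and without an interval. In the left panel PEG3, MEST and NNAT lie clear of the right dashed line, and in the right panel GRB10 is farthest to the left.

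Over all deep nuclei, whatever their class, 6 of 9 imprinted genes were called higher in the blastoid, beside 19.9% of 16115 genes, and 1, GRB10, was called lower, beside 14.8%. PEG3 was 4.44-fold higher (3.55 to 5.6), PLAGL1 7.89-fold (6.02 to 10.5), MEST 12.1-fold (8.16 to 18.7) and NNAT 9.71-fold (7.56 to 12.6). PEG10 was 26.8-fold higher with a wide interval (6.88 to 230), from 35 against 2 UMIs, and 17.8-fold with 3 UMIs in place of the 2. SGCE was 140-fold higher with the same floor in place of 0, from 274 UMIs against 0, with an exact 95% lower limit of 113. These sums mix classes that differ in share between the libraries: the unnamed class held 251 of the 274 SGCE UMIs and 289 of the 330 PLAGL1 UMIs. Of 12 neural markers tested here 12 were called higher in the blastoid (median log2 ratio 3.51), and of 22 hypoblast markers 4 were called higher and 11 lower (median -1.0). Of 13 epiblast markers 2 were called higher and 7 lower (median -1.08), and of 16 trophectoderm markers 8 higher and 1 lower (median 1.05). The part of these lists in the ratios of the imprinted genes was not tested.

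Inside the deep blastoid, 5 of 9 imprinted genes were called higher in the unnamed than in the trophectoderm-like nuclei, beside 19.5% of 13190 genes, and 0 lower, beside 16.9%. They were PLAGL1, SGCE, PEG10, MEST at 3.59-fold (2.64 to 4.93) and NNAT at 4.36-fold (3.49 to 5.48). GRB10 at 0.937-fold (0.801 to 1.09) had an interval that includes 1. Of 11 neural markers tested 9 were called higher in the unnamed nuclei and 0 lower. Of 16 trophectoderm markers 0 were higher and 12 lower (median log2 ratio -1.64), of 21 hypoblast markers 7 higher and 3 lower, and of 9 epiblast markers 3 higher and 4 lower. The part of these markers in the calls was not tested. Nuclei of the unnamed class differed among themselves more than counting would give. The index of dispersion, the variance between nuclei over that expected from counting at their depths, was 5.33 for MEST, 2.43 for NNAT and 2.41 for PLAGL1, against a median of 1.51 over 4276 genes, and 1.21 for PEG3. In the deep trophectoderm-like class the order was turned, with 3.48 for PEG3 and 1.53 for NNAT, and 1 nucleus held 18 of 207 PEG3 UMIs. Rank correlations of CPM between pairs of the 10 genes over the 139 unnamed nuclei lay between -0.21 and 0.18 and are not read as a pattern in such sparse counts.

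The shallow barcodes of the blastoid were set against its deep nuclei. Called higher in the shallow barcodes were 3 of 10 imprinted genes, beside 19% of 14569 genes, and called lower were 2, beside 44.0%. The genes called higher were IGF2, MEST at 2.86-fold (2.43 to 3.37) and NNAT at 3.27-fold (2.93 to 3.65). The genes called lower were PLAGL1, 4.98-fold (3.68 to 6.87), and GRB10, 8.27-fold (6.35 to 11). PEG3 at 1.90-fold (1.63 to 2.20) stood just under the line. All genes tested had a median log2 ratio of -0.74 here, while the 10 genes had 0.21. The ribosomal protein share moved with this comparison, from 2.52% to 15.6% of UMIs, as did the mitochondrial share, from 0.481% to 2.03%. Beyond leaving these UMIs out of the totals, given below, the part of either in the ratios was not tested. Of 12 neural markers 2 were called higher and 9 lower in the shallow barcodes, of 16 trophectoderm markers 6 higher and 2 lower, of 22 hypoblast markers 6 and 6, of 10 epiblast markers 2 and 4, and of 6 fibroblast markers 4 and 2. Their part was not tested either. With ribosomal and mitochondrial UMIs left out of the totals, 5 imprinted genes in place of 3 were called higher, beside 22.3% of all genes in place of 19%.

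The shallow barcodes varied among themselves in these genes about as other genes did. The index of dispersion lay between 1.09 for MEST and IGF2 and 1.20 for NNAT and PLAGL1, beside a median of 1.14 over 4949 genes. At a finer clustering the ribosomal-rich barcodes split into 10 clusters of 116 to 266. NNAT ranged from 316 to 443 CPM over them, SNRPN from 198 to 267, PEG3 from 108 to 175, MEST from 95.8 to 181 and SGCE from 24.0 to 44.9. Other genes of the 10 ranged more widely, GRB10 from 7.48 to 39.9 CPM, PLAGL1 from 5.39 to 24.0, IGF2R from 22.3 to 82.0, IGF2 from 0 to 21.3 and PEG10 from 0 to 29.9.

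RNA of endoderm proteins, of a hormone subunit and of a keratin gave a yardstick for how far RNA abundant in the shallow barcodes also appears in deep nuclei. AFP, a carrier protein made by yolk sac endoderm that trophectoderm should lack, had 0 UMIs in the blastocyst library, and so had TTR and APOB. In the deep trophectoderm-like blastoid nuclei AFP stood at 0.164 (0.132 to 0.202) of its shallow level, and in the unnamed nuclei at 0.153 (0.119 to 0.194). TTR stood at 0.198 and 0.154, and CGA, a glycoprotein hormone subunit, at 0.202 and 0.172. In the deep trophectoderm-like class NNAT was at 0.123 (0.0999 to 0.151) of its shallow level and MEST at 0.163 (0.122 to 0.215), at or below AFP. SGCE at 0.256 (0.156 to 0.402), PEG10 at 0.230 and IGF2 at 0.250 overlapped AFP. At these levels NNAT, MEST and SGCE in the deep trophectoderm-like nuclei are not told apart from RNA shared with the shallow barcodes, and whether such RNA has a part in their calls was not tested. KRT8, a keratin that trophectoderm makes, stood at 0.231 (0.218 to 0.245) in the same nuclei, above AFP, and at 0.162 (0.150 to 0.174) in the unnamed class, at the level of AFP. PEG3 at 0.634 (0.534 to 0.750) and PLAGL1 at 1.11 (0.713 to 1.71) stood above AFP. In the unnamed class NNAT at 0.538 (0.476 to 0.607), MEST at 0.586 (0.487 to 0.701), PEG3 at 0.392 (0.313 to 0.488), PEG10, SGCE and PLAGL1 at 9.90 (7.29 to 13.7) all stood above AFP, and IGF2 at 0.363 (0.146 to 0.792) overlapped it. APOB stood at 0.670 (0.448 to 0.987) in the trophectoderm-like class and at 0.249 (0.123 to 0.458) in the unnamed class. PEG3 overlapped APOB in both classes and PLAGL1 did so in the trophectoderm-like class, so how far they stand apart depends on the gene they are set against.

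**Figure D3:**
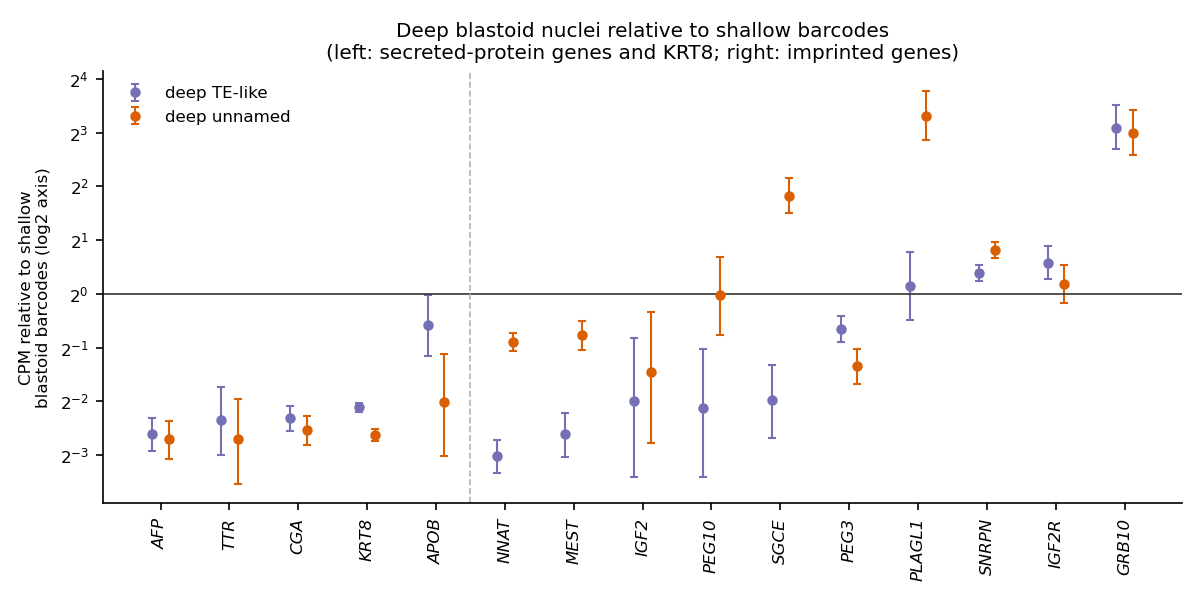
Level in deep trophectoderm-like (purple) and deep unnamed (orange) blastoid nuclei divided by the level in shallow blastoid barcodes (log2 axis), with 95% intervals of counting. To the left of the dashed line are AFP, TTR, CGA, KRT8 and APOB, and to the right the 10 imprinted genes. NNAT and MEST in trophectoderm-like nuclei lie at the height of AFP, while GRB10 lies near 8 in both classes.

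Detection in single barcodes was compared after thinning to 1000 UMIs. Barcodes with fewer UMIs were left out, 32 of 354 blastocyst trophectoderm-like, 2 of 402 hypoblast-like and 4 of 1628 shallow blastoid ones. NNAT was then found in 28.3% (26.1 to 30.5) of shallow barcodes, 21.6% (15.1 to 29.4) of unnamed nuclei and 5.44% (2.38 to 10.4) of deep trophectoderm-like nuclei, where AFP was found in 2.04% (0.423 to 5.85). In the blastocyst classes NNAT was found in 0.932% to 1.41%. Without thinning the NNAT shares were 45.9%, 84.9% and 46.9% in the blastoid and 3.67% to 15.5% in the blastocyst, at medians of 1922, 11063 and 15091 UMIs against 6797 to 10175. SGCE was found in 13.7% (8.43 to 20.5) of thinned unnamed nuclei, 3.02% of shallow barcodes and 2.04% of deep trophectoderm-like nuclei, the last equal to AFP. GRB10 was found in 22.4% to 32.8% of thinned blastocyst nuclei, in 8.16% and 10.8% of the deep blastoid nuclei and in 1.97% (1.35 to 2.77) of shallow barcodes. Thinned to 2000 UMIs, which left out 66 trophectoderm-like and 8 hypoblast-like blastocyst nuclei, GRB10 was found in 37.5% to 47.0% of blastocyst nuclei and in 25.9% and 25.2% of the deep blastoid nuclei. Without thinning it was found in 61.6% to 90.1% of blastocyst nuclei and in 78.2% and 71.9% of the deeper blastoid nuclei.

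**Figure D4:**
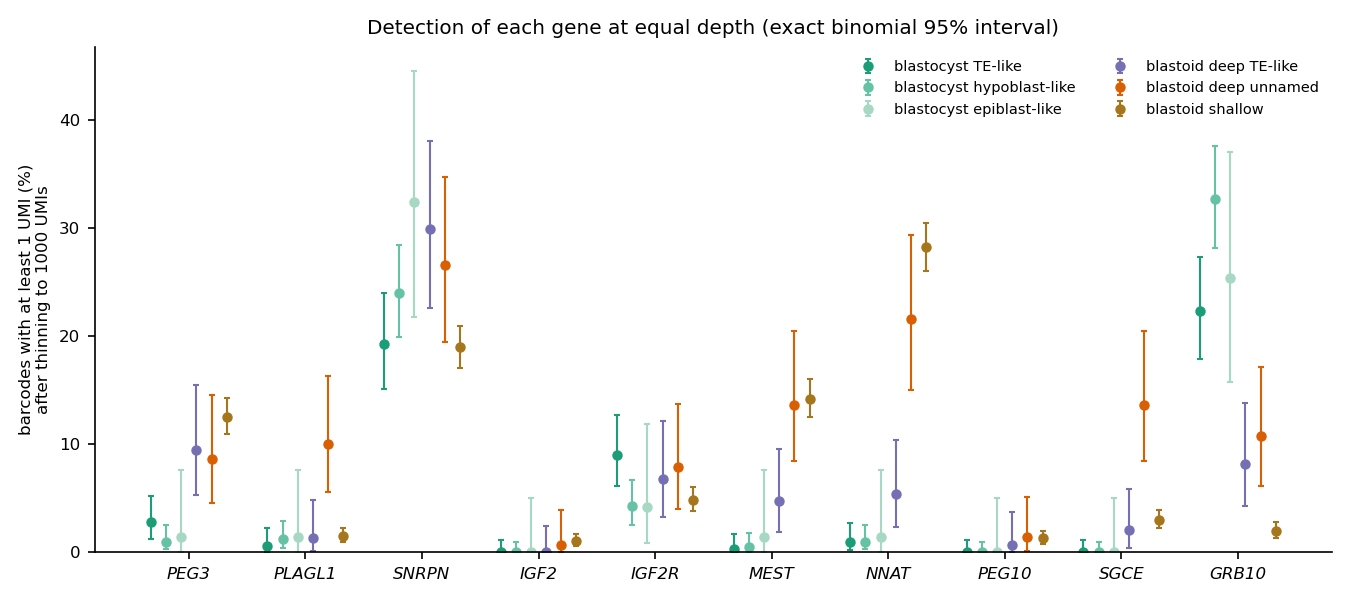
Percent of barcodes with at least 1 UMI of each gene after thinning to 1000 UMIs, by class, without the barcodes below that depth, with exact binomial 95% intervals. SNRPN is found in every class at 19% to 32.4%, IGF2 and SGCE in no blastocyst nucleus, and GRB10 at a higher share of blastocyst than of blastoid barcodes at this depth.

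Between the lineages of the blastocyst, calls fell on MEST, NNAT and PLAGL1. Against trophectoderm-like nuclei, 1 of 7 genes was called higher in hypoblast-like nuclei, beside 15.3% of 13579 genes, and 0 lower, beside 13.0%. The call was MEST at 2.13-fold from 18 against 7 UMIs, with an interval (0.849 to 6.04) that includes 1. SNRPN at 1.45-fold (1.32 to 1.60) and GRB10 at 1.49-fold (1.36 to 1.64) were higher in hypoblast-like nuclei by sizes short of 2-fold. PEG3 at 0.745-fold (0.504 to 1.10) turned direction with the clusters used, to a log2 ratio of 0.29 without the shallow keratin-rich cluster.

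In epiblast-like nuclei NNAT was called higher, and it was the 1 call among 6 genes against trophectoderm-like nuclei, beside 14.5% higher and 17.8% lower of 11885 genes, with 0 members lower. Its ratio was 5.04 (2.78 to 9.30) against trophectoderm-like and 4.4 (2.54 to 7.64) against hypoblast-like nuclei. Against hypoblast-like nuclei 1 of 7 genes was higher, beside 5.25% of 12258, and 1 was lower, beside 5.78%: PLAGL1, 3.18-fold (1.02 to 16.0) from 3 against 42 UMIs. The summed neural markers stood at 888 CPM in epiblast-like, 550 in hypoblast-like and 183 in trophectoderm-like nuclei. Hypoblast markers were high in the epiblast-like class too. They summed to 4957 CPM there, against 8149 in hypoblast-like and 2779 in trophectoderm-like nuclei, and 9 of 16 were called higher than in the latter and 2 lower. HNF4A, a hypoblast transcription factor, was at 558 CPM in epiblast-like and 549 in hypoblast-like nuclei. The name of the class thus rests on its epiblast markers and not on a lack of hypoblast RNA. Most epiblast markers did not separate it from hypoblast-like nuclei, as 3 of 12 were called higher and 2 lower (median log2 ratio 0.11). NANOG was at 117 against 21.6 CPM, while PRDM14 (60.7 against 58.1) and SOX2 (40.9 against 36.6) were close. The part of these markers in the NNAT call was not tested. The NNAT level rested on few nuclei. Of the 71 epiblast-like nuclei 11 held its 29 UMIs. At the finer clustering an epiblast-like cluster of 16 nuclei held 25 NNAT UMIs (151 CPM, 97.4 to 222) in 7 nuclei, and the other epiblast-like cluster of 104 held 7 (6.41 CPM, 2.58 to 13.2). Without the 5 nuclei richest in NNAT of each class the log2 ratio to hypoblast-like nuclei dropped from 2.14 to 0.57.

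Other genes reported as imprinted in cattle, human or mouse did not move one way. Of 58 listed, 43 had a symbol and 23 had enough UMIs in the trophectoderm-like comparison. Of these 6 were called higher and 5 lower in the blastoid, beside 17.1% and 13.4% of all genes tested, and the median log2 ratio was -0.11. KCNQ1, a potassium channel whose locus holds an imprinting centre, was 5.07-fold higher (4.37 to 5.91), at 416 CPM in the blastoid. ASCL2, a trophoblast transcription factor, was 7.80-fold higher (3.87 to 17.8) and was 4.18-fold higher again in the shallow barcodes than in the deep nuclei, at 106 CPM. Its deep trophectoderm-like level was 0.255 (0.193 to 0.334) of the shallow one, which overlapped the value of AFP. SFMBT2, needed for mouse trophoblast, was 2.36-fold and RB1 2.04-fold higher. ATP10A was at 0.135-fold (0.0733 to 0.232), CASD1 at 0.357-fold and ZFP42 at 0.320-fold of the blastocyst level. UBE3A, on the SNRPN side, was at 0.581-fold and GNAS at 0.929-fold, and neither was called. Of 26 genes tested in the shallow barcodes against deep nuclei 7 were called higher and 12 lower, beside 19% and 44.0% of all genes. With ASCL2, TSSC4 at 4.45-fold, ZFP42 at 3.17-fold and BLCAP at 2.16-fold were among the higher. Among the lower were ATP10A, from 1 shallow UMI against 33 (interval 0.00101 to 0.245), KCNQ1 at 0.112-fold, TRAPPC9 at 0.124-fold, SFMBT2 at 0.137-fold and PPP1R9A at 0.147-fold. RB1 at 0.264-fold, COPG2 at 0.294-fold, CASD1 at 0.357-fold and UBE3A at 0.453-fold were lower too. CDKN1C, an inhibitor of the cell cycle, was scarce in the blastocyst at 2.17 to 3.96 CPM and reached 12.7 CPM in the unnamed and 15.1 CPM in the shallow blastoid class, where it was called higher than in deep nuclei at 2.09-fold. H19, MEG3, KCNQ1OT1, AIRN and USP29, among others without a matching symbol, were not analysed here.

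Genes that handle IGF signals were called in both directions. Of 15 tested in the trophectoderm-like comparison 6 were higher and 2 lower, beside 17.1% and 13.4% of all genes, with a median log2 ratio of 0.16. The binding proteins IGFBP3 at 2.74-fold (1.77 to 4.33), IGFBP6 at 10.0-fold (3.59 to 38.6) and IGFBP7 at 2.98-fold (2.16 to 4.16) were higher, and so were LIN28B at 2.98-fold (2.49 to 3.58) and PAPPA2 at 5.13-fold (2.36 to 12.7). Relative to the shallow barcodes the deep trophectoderm-like nuclei held 0.263 (0.203 to 0.337) of IGFBP3, just above the interval of AFP, 0.207 (0.143 to 0.294) of IGFBP6, which overlapped it, and 1.10 (0.875 to 1.37) of IGFBP7. IGFBP5 was lower at 0.144-fold (0.0369 to 0.409), and IGF2BP1, which binds IGF2 mRNA, at 0.453-fold. In the shallow barcodes 5 of 17 genes were called higher than in deep nuclei and 8 lower, beside 19% and 44.0% of all genes tested. The 5 were binding protein genes, IGFBP2, IGFBP3, IGFBP4, IGFBP5 and IGFBP6, at 2.64-fold (IGFBP5) to 6.26-fold (IGFBP6). IGF1R, a receptor of the ligands, was lower, at 28.0 CPM against 161 and 523 CPM in the deep classes. INSR at 0.273-fold, IRS1 at 0.188-fold, LIN28B at 0.268-fold, IGF2BP1 at 0.270-fold, IGF2BP2 at 0.113-fold and IGF2BP3 at 0.230-fold were lower as well.

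Of 16 tested genes that keep or erase imprints, 2 were called higher in the blastoid trophectoderm-like nuclei and 2 lower, shares near those of all genes (17.1% and 13.4%), with a median log2 ratio of -0.37. UHRF1, which recruits the maintenance methyltransferase to DNA, was 9.25-fold higher (4.63 to 21.0), and TET3, which oxidises methylcytosine, 2.30-fold (1.95 to 2.73). DPPA3, which protects the maternal genome in the egg and zygote, was at 0.0221-fold (0.00263 to 0.0818), and TET1 at 0.481-fold (0.453 to 0.511). DNMT1 at 1.89-fold (1.54 to 2.32), DNMT3A at 0.562-fold, ZFP57 at 0.734-fold and TRIM28 at 0.937-fold were not called. The deep trophectoderm-like level of UHRF1 was 0.525 (0.398 to 0.687) of the shallow one. In the shallow barcodes 2 of 16 genes were called higher than in deep nuclei and 8 lower, beside 19% and 44.0% of all genes. The 2 were DNMT1 at 2.5-fold and TRIM28 at 2.52-fold. Of the 8 called lower, TET1, TET2, TET3 and the methyltransferase DNMT3B lay between 0.194-fold (TET3) and 0.293-fold (TET1), and SMCHD1, ZNF202 and ARID4A between 0.335-fold and 0.353-fold.

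Of 13 neighbours and relatives of the 10 genes tested in the trophectoderm-like comparison 3 were called higher and 2 lower, beside 17.1% and 13.4% of all genes. COBL, beside GRB10 in the RefSeq gene order, was 3.85-fold higher (3.32 to 4.49) in the blastoid trophectoderm-like nuclei. PHACTR2, on the PLAGL1 side, was 2.39-fold higher (1.78 to 3.24), and GRB7, a relative of GRB10, was at 0.365-fold (0.222 to 0.581). In the shallow barcodes 3 of 15 were called higher than in deep nuclei and 8 lower, beside 19% and 44.0%. SNRPB, a relative of SNRPN, at 5.16-fold and SF3B5, beside PLAGL1, at 6.90-fold were among the higher, while COBL, at 0.126-fold, and PHACTR2, at 0.191-fold, were called lower.

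Genes with the most similar profile were found by Pearson correlation of log2(CPM + 1) over the 6 classes among 8614 genes with at least 200 UMIs. The 6 points share libraries and differ in depth, so the correlations describe these classes only. TF, the transferrin gene, followed PEG3 (r = 0.99), with 29.9, 7.39 and 60.0 CPM in the blastoid classes and at most 0.723 CPM in the blastocyst. C11H9orf78 was as close to PEG3 (r = 0.99) with smaller differences, at 39.9, 35.9 and 55.0 CPM in the blastoid and 17.2 to 20.1 CPM in the blastocyst classes. These were 2 of 100 genes with r over 0.95. ZBTB16 followed PLAGL1 (r = 0.98), with 127 CPM in the unnamed class, and so did DNAJB14 (r = 0.98), with 76.0 CPM there and 37.0 to 48.6 CPM in the other classes. PLAGL1 had 23 genes with r over 0.95, SNRPN 75, IGF2R 5, MEST 73, NNAT 26 and SGCE 38. CNTFR and SYT11 followed NNAT, MMP2 and RCN3 followed MEST, and HOXA3 and HOXD3 followed SGCE, HOXA3 with 147 CPM in the unnamed class and at most 0.361 CPM in the blastocyst. VTA1 and SPG11 followed GRB10, 2 of 608 genes with r over 0.95. GNPDA2 and TTC28 followed SNRPN, and GEMIN5 and MINDY2 followed IGF2R. IGF2 and PEG10 had too few UMIs to be ranked.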

How the data were processed

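The deposited files hold UMI counts per gene and barcode, 1 matrix for the blastoid and 1 for the blastocyst library, and the file headers name Cell Ranger 7.2.0 as the tool the authors used. The submitters' processing notes list Cell Ranger 7.1.0 and Seurat 4.3.0. Genome build, annotation and cell calling are not given in the sources used here, so no coordinates or sequences are printed; gene order comes from RefSeq ARS-UCD2.0. Libraries shared 1 barcode sequence, 0 among those kept.

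Barcodes with at least 500 genes and under 10% mitochondrial UMIs were kept, and doublets were taken out by Scrublet score in scanpy 1.11.5, at a rate of 0.8% for each 1000 barcodes (30 of 1944 blastoid and 6 of 833 blastocyst barcodes). Each library was clustered alone (2000 variable genes without markers and imprinted genes, 30 components, 15 neighbours, leidenalg 0.10.2, resolution 0.5). A cluster could be named trophectoderm-like, hypoblast-like or epiblast-like only, from at least 3 markers with 100 UMIs and 1.5 times the CPM of the other clusters, if no other list, fibroblast, mesoderm and neural included, had more than 1 for each 2 of them, and stayed ribosomal-rich above 5% ribosomal protein UMIs. UMIs were summed per class. With 1 library a group no test across replicates was possible. Ratio steps were tested on simulated data.

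The 10 genes, the gene lists and the markers were chosen with earlier results of these data known. Of the other lists, genes whose UMIs summed to 100 or more over the libraries and that lay past 2-fold in the trophectoderm-like or the shallow comparison are named, and the 2 most similar genes per imprinted gene. Neighbours and genes named as not called were chosen after their values were seen. The alternatives tried are given below.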

Additional observations from a re-analysis of the deposited data

How the results depend on the processing

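No paired analysis was possible because each group has 1 library. Counts of imprinted genes called were recomputed under the alternatives, and 208 of 238 stayed within 1.5 times. The others follow, with the share of all genes called in the same way in brackets, and the cause was not tested. With a minimum of 200 genes, hypoblast-like against trophectoderm-like nuclei had 0 higher (15.2%). Epiblast-like against trophectoderm-like nuclei had 1 lower (17.3%) and epiblast-like against hypoblast-like 0 lower (4.80%). With a minimum of 1000 genes the last had 2 higher and 0 lower, and at resolution 1.0 it had 0 lower. Shallow against deep barcodes had 5 higher without ribosomal and mitochondrial UMIs, 5 without the 5 barcodes richest in the gene, and 5 higher and 4 lower at 1.5-fold. Median-ratio scaling gave 2 lower (24.7%) in epiblast-like against trophectoderm-like nuclei. Mean barcode CPM gave 2 higher (16.3%) and 2 lower (17.0%) for hypoblast-like and 0 higher (15.5%) for epiblast-like against trophectoderm-like nuclei. Without the 5 richest barcodes hypoblast-like against trophectoderm-like had 2 higher (15.3%) and epiblast-like against trophectoderm-like 1 lower (17.8%). Epiblast-like against hypoblast-like then had 0 higher (5.25%) and 2 lower (5.78%). At 1.5-fold the trophectoderm-like comparison of the libraries had 1 lower (22.5%) and the unnamed class 1 lower (26.5%). Against trophectoderm-like nuclei, hypoblast-like nuclei then had 2 higher (26.8%) and epiblast-like nuclei 2 lower (29.0%). At 3-fold all deep nuclei had 0 lower (8.27%) and hypoblast-like nuclei 0 higher (8.00%). With at least 100 UMIs the trophectoderm-like comparison of the libraries had 2 higher (12.2%), PEG3 and NNAT. The lineages of the blastocyst then had 0 called (2.75% to 17.6% by comparison and direction). In blastocyst nuclei of at least 4000 UMIs, an alternative added after seeing the data, hypoblast-like nuclei had 0 higher (15.9%). Leaving out the shallow keratin-rich blastocyst cluster was also added then. Of the single log2 ratios 925 stayed and 53 moved, some of them uncalled ratios that changed sign, as PEG3 in hypoblast-like against trophectoderm-like nuclei, from -0.43 to between 0.29 and 1.18 under other clusters or names. Among called ratios 2 changed sign, both for epiblast-like against hypoblast-like nuclei with a minimum of 1000 genes, which left 35 and 33 nuclei: PLAGL1 at 0.93 and NNAT at -0.29. In the trophectoderm-like comparison of the libraries the log2 ratio of PEG3 lay between 1.98 and 3.16 under the alternatives, that of NNAT between 2.52 and 3.94 and that of PLAGL1 between 1.06 and 2.49. Of the levels in CPM 571 stayed and 29 moved. Of the shares of barcodes with a UMI, thinned to 2000 UMIs or not thinned, 42 stayed and 78 moved. Depth limited IGF2, PEG10 and, in the blastocyst, MEST, where a class held at most 18 UMIs.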
